A study of Homo sapiens with 9 samples.

Results

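The genes described here are 9 transcriptional targets of the tumour suppressor p53, namely MDM2, MDM4, GDF15, SESN1, TP53INP1, TP53I3, ZMAT3, XPC and TNFRSF10B. They were listed by name as established p53 targets, with CDKN1A treated only briefly, and were matched by Ensembl identifier to 9 of the 36753 gene identifiers that carry values. Earlier results of these data were known when the genes were chosen. RNA was sequenced 48 h after transfection of PANC-1, a human pancreatic cancer cell line in long use. The control group (3 libraries, headed siNC in the files, a usual short form for a negative control small interfering RNA) was compared with cells given siRNA against SIRT6 (siSIRT6, 3 libraries) and cells given siRNA against KDM5C (siKDM5C, 3 libraries). All 3 groups were transfected cells of the same line, with no other allele or agent named. SIRT6 is a nuclear deacylase of histones, and KDM5C removes methyl groups from lysine 4 of histone H3. The number of siRNAs per gene and their sequences are not known here, so each group stands for 1 transfection treatment of 1 line.

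p53 is a transcription factor that is stabilised by DNA damage and other stress, and it binds a response element made of a pair of decamers near its target genes. MDM2, a ubiquitin ligase, and its relative MDM4 hold p53 in check, and since p53 activates MDM2 they form a negative feedback loop. The other targets act in growth arrest, redox and nutrient control, DNA repair and cell death. Many of these genes also answer to other stress pathways.

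The targeted genes were low in the groups named for them. SIRT6 was at 6.18 FPKM (fragments per kilobase of gene, scaled to library depth) in control and 0.597 FPKM in siSIRT6, and KDM5C was at 18.4 FPKM in control and 3.61 FPKM in siKDM5C. Library totals inferred from the FPKM steps ran from 18201413 to 26910441 reads. The 9 target genes held 152 to 9829 recovered reads each per library, for which counting alone gives an error of 8.11% at the low end and 1.01% at the high end. Of 6 epithelial and ductal markers, 4 keratins reached 1 FPKM in every library, EPCAM reached it in some libraries only and CDH1 stayed below it. The list summed to 1091 to 1143 FPKM in control, 1398 to 1513 in siSIRT6 and 695.7 to 856.4 in siKDM5C. Endothelial markers (3 genes) summed to at most 0.0757 FPKM in any library and acinar and islet markers (4 measured) to at most 0.145. Leukocyte markers (4 measured) summed to 43.4 to 57.6 FPKM in control, 35.8 to 38.8 in siSIRT6 and 72.3 to 93.1 in siKDM5C, nearly all from CD68, while the defining gene PTPRC was at a mean of at most 0.00594 FPKM. Fibroblast markers (5) summed to 15.7 to 16.6 FPKM in control, 40.9 to 42.9 in siSIRT6 and 14.97 to 16.97 in siKDM5C, nearly all from COL1A1, with COL1A2, DCN and PDGFRB near 0 and LUM at means of 0.0871, 0.272 and 0.0107 FPKM in the same order. Between replicates, the chi-square per gene of recovered reads was 2.72 for control replicates 1 and 2 but 12 and 13.2 for pairs with control replicate 3, 13.9 to 20.2 for siKDM5C pairs and 2.03 to 3.39 for siSIRT6 pairs (1 being sampling noise). Without control replicate 3, 7 targets were called in siSIRT6 and 8 in siKDM5C, the same numbers as with it. The part of the marker levels and of the replicate spread in the results below was not tested. In bulk RNA, fewer cells of a type and less RNA per cell cannot be told apart.

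Testing used limma on log2(FPKM + 1) over the 16135 genes that reached 1 FPKM in 3 or more libraries, with Benjamini-Hochberg adjusted p-values, and "rose" and "fell" below mean an adjusted p under 0.05. The log2 differences given are on that scale and are smaller than log2 ratios of FPKM for low genes. The labels do not say whether replicates were separate cultures, so these p-values measure the spread between libraries that may be technical. Both knockdown groups were compared with the same 3 control libraries, so their differences from control are not independent of each other.

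Most of the 9 targets were lower after either siRNA. In siSIRT6, MDM2, MDM4, GDF15, SESN1 and TNFRSF10B fell, XPC and TP53I3 rose, and TP53INP1 and ZMAT3 did not pass the test. Thus 7 of 9 were called, while 50.8% of all tested genes were (23.9% rose and 26.9% fell), and the median log2 difference of the 9 was -0.45 against -0.05 over all tested genes. In siKDM5C, the same 5 genes, TP53INP1 and ZMAT3 fell, XPC rose, and TP53I3 did not pass. Thus 8 of 9 were called, beside a background of 51.5% (25.6% rose and 25.9% fell), with a median of -0.52 against -0.02. By library, 7 of 9 had no overlap with control in siSIRT6 (2 above and 5 below, beside 65.5% of all tested genes, 30.3% above and 35.2% below), and 7 of 9 in siKDM5C (1 above and 6 below, beside 55.7%, 28.0% above and 27.7% below). A call for a single gene was therefore common in these data. The 9 genes were chosen with earlier results of these data known, so the shares and medians given here only describe them. The 9 genes did not move as a block, because XPC rose in both groups and 3 genes passed in 1 group alone. Among the siKDM5C libraries, replicate 2 was the highest for MDM2, MDM4, SESN1, TP53INP1 and ZMAT3.

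**Figure D1:**
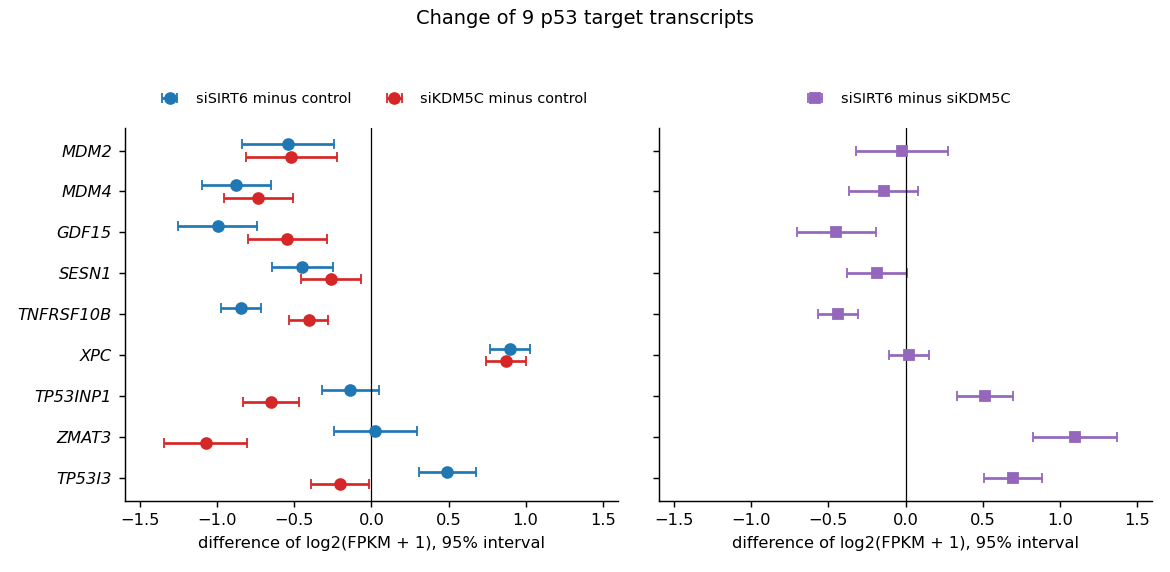
Differences of log2(FPKM + 1) for the 9 p53 targets (points, with 95% confidence intervals from limma as bars), on the left each knockdown group minus control and on the right siSIRT6 minus siKDM5C. On the left the bars of 5 genes lie wholly below 0 in both groups and those of XPC wholly above 0, and on the right ZMAT3, at 1.10, lies farthest from 0.

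The control cells set the order of the targets. By mean FPKM the order was GDF15, TNFRSF10B, MDM2, ZMAT3, TP53I3, MDM4, TP53INP1, SESN1 and XPC, from 241.5 FPKM down to 2.75 FPKM. The neighbours TP53I3 and MDM4 overlapped between control libraries, as did TP53INP1 and SESN1, and SESN1 and XPC, and the other neighbours did not. XPC had the lowest mean in control and ranked 6 in siSIRT6, at 5.97 FPKM, and 4 in siKDM5C, at 5.88 FPKM.

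**Figure D2:**
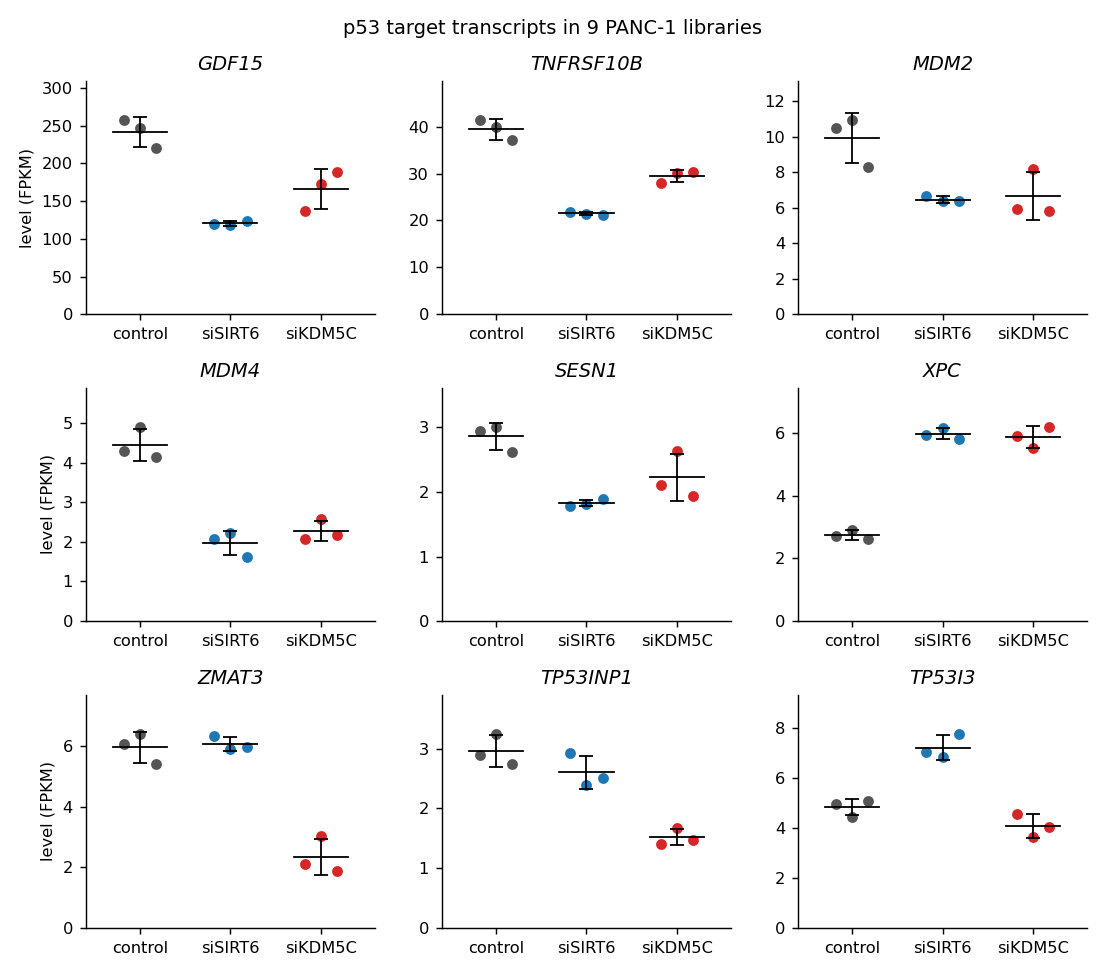
FPKM of each of the 9 p53 targets in the 9 libraries, grouped as control, siSIRT6 and siKDM5C, with 1 point per library, a line at the group mean, bars for the SD (n = 3), and a separate scale from 0 for each gene. All 6 knockdown libraries of MDM2, MDM4, GDF15 and TNFRSF10B lie below the 3 control libraries, and all 6 of XPC lie above them.

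MDM2 and MDM4, the negative regulators of p53, fell in both groups. MDM2 (ENSG00000135679, GRCh38 chromosome 12, 68808176 to 68850686, plus strand) encodes the ubiquitin ligase that marks p53 for degradation, and p53 acts on its internal promoter. In the RefSeq promoter table (GRCh38.p14, 250 bases before to 50 after each annotated start), 2 of the 4 MDM2 windows hold the element shown. It lies in the internal promoter through which p53 is known to act, and the matched pair of decamers is in capitals. The capitals mark only what the search found, which need not be the only p53 element there.
MDM2 chr12:68808883-68808982, plus strand: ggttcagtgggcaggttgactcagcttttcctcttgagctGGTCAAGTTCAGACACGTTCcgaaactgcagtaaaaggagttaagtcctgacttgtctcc
The pair begins at position -94 or -101, counted from 2 annotated starts, and has 2 letters off the p53 consensus.

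MDM2 was at 10.5, 10.9 and 8.31 FPKM in the control libraries, 6.66, 6.35 and 6.36 FPKM in siSIRT6, and 5.90, 8.20 and 5.84 FPKM in siKDM5C. Every knockdown library was below every control library, although siKDM5C replicate 2 lay close to the lowest control. The log2 difference was -0.54 in siSIRT6 (SE 0.13, limma adjusted p = 0.00828) and -0.52 in siKDM5C (SE 0.13, adjusted p = 0.00996). The knockdown groups were not separated from each other (log2 difference siSIRT6 minus siKDM5C -0.02, 95% interval -0.32 to 0.28, limma adjusted p = 0.909). A pseudogene of the processed kind on the same strand, AC025423.2, and an antisense gene, AC025423.4, overlap MDM2. They fell too, from 27.7 FPKM to 18.8 and 17.2 FPKM, and from 26.1 FPKM to 15.2 and 17.3 FPKM, in siSIRT6 and siKDM5C in that order. CPM, on the opposite strand, was at 1.19 FPKM in control and 1.64 and 1.36 FPKM and did not pass. The counted strand is unknown, so reads of MDM2 and of the genes that overlap it cannot be told apart, and the same holds for the overlapping genes named below.

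MDM4 (ENSG00000198625, chromosome 1, 204516379 to 204558120, plus strand) encodes a relative of MDM2 that binds the transactivation domain of p53. It was at 4.29, 4.91 and 4.14 FPKM in control, 2.08, 2.22 and 1.62 FPKM in siSIRT6, and 2.07, 2.57 and 2.18 FPKM in siKDM5C, with no overlap between control and either knockdown group. Against control the log2 difference was -0.88 in siSIRT6 (SE 0.10, limma adjusted p = 0.000147) and -0.73 in siKDM5C (SE 0.10, limma adjusted p = 0.000385). The direct difference between knockdown groups was -0.14 (95% interval -0.37 to 0.08, limma adjusted p = 0.283). MDM4 was the lower of the pair throughout. The MDM2 level divided by the MDM4 level gave 2.23 ± 0.220 for control, 3.33 ± 0.543 for siSIRT6 and 2.90 ± 0.259 for siKDM5C (SD, n = 3), and every library of either knockdown group had a higher ratio than every control library. No test was run on the ratio.

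CDKN1A, the p21 inhibitor of cyclin-dependent kinases, fell from 131 FPKM in control to 53.3 FPKM in siSIRT6 and 55.8 FPKM in siKDM5C (log2 difference -1.29 and -1.22, limma adjusted p = 5.66e-07 and 6.97e-07).

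The targets of stress and metabolism did not share a direction. GDF15 (ENSG00000130513, chromosome 19, 18374731 to 18389176, plus strand) encodes a secreted stress cytokine. It was the most abundant of the 9. Its levels were 257.6, 246.9 and 220.0 FPKM in control, 119, 119 and 124 FPKM in siSIRT6, and 137, 173 and 189 FPKM in siKDM5C, so the 3 groups did not overlap. Its log2 difference was -0.995 in siSIRT6 (SE 0.11, limma adjusted p = 0.00015) and -0.55 in siKDM5C (SE 0.11, limma adjusted p = 0.00381). The fall was larger in siSIRT6, by 0.45 on the log2 scale (limma adjusted p = 0.0129). The microRNA gene MIR3189 lies inside GDF15 on the same strand, and its 73 bases fell from 38.9 FPKM to 8.81 FPKM in siSIRT6 and 15.6 FPKM in siKDM5C. A looser pair of decamers lies 28 bases after the GDF15 start, at chr19:18386186-18386205 on the plus strand, with 3 letters off.
GDF15 pair: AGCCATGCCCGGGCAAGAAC

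SESN1 (ENSG00000080546, chromosome 6, 108986437 to 109094819, minus strand) encodes sestrin 1, which restrains the growth kinase complex TORC1 through GATOR and supports the reduction of peroxiredoxins. Its level was 2.94, 3.01 and 2.63 FPKM in control, 1.79, 1.81 and 1.89 FPKM in siSIRT6, and 2.11, 2.64 and 1.94 FPKM in siKDM5C. All siSIRT6 libraries were below all controls, while siKDM5C replicate 2 lay within the control range. The log2 difference in siSIRT6 was -0.45 (SE 0.09, limma adjusted p = 0.00268). In siKDM5C it was -0.26 (SE 0.09, limma adjusted p = 0.0314), and that call was lost in 6 of 16 alternatives. Among these were the fits without control replicate 1, control replicate 2, siKDM5C replicate 1 or siKDM5C replicate 3 (limma adjusted p = 0.0871 to 0.096). The antisense gene AL390208.1, which overlaps SESN1, fell from 4.27 FPKM to 2.24 FPKM in siSIRT6 and 3.15 FPKM in siKDM5C. The SESN1 window with the decamer pair is shown for comparison with MDM2, and its pair begins at position -49 from an annotated start, with 3 letters off.
SESN1 chr6:109008989-109009077, minus strand: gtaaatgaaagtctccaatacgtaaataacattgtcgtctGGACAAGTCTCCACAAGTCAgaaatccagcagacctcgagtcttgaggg

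Of the 9 genes, 7 had promoters in the RefSeq table, in 13 windows of 300 bases. The p53 decamer was searched by its consensus, whose pattern reads the same on both strands. An exact decamer was in 1 of 7 genes, SESN1, while 8.06% of 27305 genes and 6.63% of 35116 promoters held 1. An exact pair was in none of the 7 and in 0.0285% of all promoters. A looser pair, in which 3 of 20 letters may be off and the C and G core is kept, was chosen after the exact result was seen. It was in 3 of 7 genes, MDM2, GDF15 and SESN1, and in 1.37% of all genes (1.12% of promoters). These matches are a description of letters in the windows searched. All 3 genes with the looser pair fell in both groups. So did MDM4, whose window held none, and TNFRSF10B, which had no promoter in the table. XPC, ZMAT3 and TP53I3 also held none. A link between the matches and the direction of change was not tested.

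TP53INP1 (ENSG00000164938, chromosome 8, 94925972 to 94949411, minus strand) encodes a stress protein that acts on p53 phosphorylation and in autophagy. It was at 2.89, 3.25 and 2.73 FPKM in control, 2.92, 2.395 and 2.50 FPKM in siSIRT6, and 1.41, 1.67 and 1.48 FPKM in siKDM5C. The siKDM5C libraries were below all others, and siSIRT6 overlapped control. Against control the log2 difference was -0.14 in siSIRT6 (95% interval -0.32 to 0.05, limma adjusted p = 0.188) and -0.65 in siKDM5C (limma adjusted p = 0.000238). The direct difference, siSIRT6 minus siKDM5C, was 0.52 (limma adjusted p = 0.00134). NDUFAF6, on the opposite strand over the whole gene, stayed at 1.43 to 1.48 FPKM by group mean and did not pass.

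TP53I3 (ENSG00000115129, chromosome 2, 24077433 to 24085861, minus strand) encodes a quinone oxidoreductase linked to oxidative stress. It was the only one of the 4 stress and metabolism targets that rose in siSIRT6. It was at 4.97, 4.45 and 5.08 FPKM in control, 7.01, 6.83 and 7.76 FPKM in siSIRT6, and 4.55, 3.62 and 4.02 FPKM in siKDM5C. The siSIRT6 libraries were above all others. Against control the log2 difference was 0.49 in siSIRT6 (SE 0.08, limma adjusted p = 0.00124) and -0.21 in siKDM5C (SE 0.08, limma adjusted p = 0.0641). The second value passed without siKDM5C replicate 1 (-0.27, limma adjusted p = 0.0243). The direct difference was 0.70 (limma adjusted p = 0.000295). FAM228B, on the opposite strand over the whole gene, rose from 0.941 to 1.44 FPKM in siSIRT6 (log2 difference 0.33, limma adjusted p = 0.0179).

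ZMAT3, XPC and TNFRSF10B, which act in RNA binding, DNA repair and death signalling, took 3 different patterns. ZMAT3 (ENSG00000172667, chromosome 3, 179017223 to 179072279, minus strand) encodes a zinc finger protein that binds RNA and regulates splicing. It was at 6.08, 6.43 and 5.43 FPKM in control, 6.34, 5.93 and 5.99 FPKM in siSIRT6, and 2.11, 3.03 and 1.88 FPKM in siKDM5C. The siKDM5C libraries were below all others, and siSIRT6 overlapped control. Against control the log2 difference was 0.02 in siSIRT6 (95% interval -0.25 to 0.29, limma adjusted p = 0.879) and -1.07 in siKDM5C (SE 0.12, limma adjusted p = 0.000125). The direct difference was 1.10 (limma adjusted p = 0.00019), the largest among the 9.

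XPC (ENSG00000154767, chromosome 3, 14145147 to 14178783, minus strand) encodes the damage sensor that starts global nucleotide excision repair, and it was the only gene of the 9 that rose in both groups. It was at 2.71, 2.91 and 2.62 FPKM in control, 5.94, 6.17 and 5.81 FPKM in siSIRT6, and 5.91, 5.52 and 6.20 FPKM in siKDM5C. Every knockdown library was above every control library, and the group means were 217% and 214% of control. The log2 difference was 0.90 in siSIRT6 (SE 0.06, limma adjusted p = 6.27e-06) and 0.87 in siKDM5C (SE 0.06, limma adjusted p = 7.73e-06). The direct difference was 0.02 (95% interval -0.11 to 0.15, limma adjusted p = 0.79). Overlapping genes on the opposite strand moved with it, because AC093495.1 rose from 1.80 FPKM to 3.69 and 3.62 FPKM and AC090004.1 rose from 23.9 FPKM to 33.6 and 32.5 FPKM in siSIRT6 and siKDM5C in that order. LSM3, also on the opposite strand, did not pass.

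TNFRSF10B (ENSG00000120889, chromosome 8, 23020133 to 23069179, minus strand) encodes the death receptor DR5 for the ligand TRAIL. It was at 41.4, 39.9 and 37.1 FPKM in control, 21.8, 21.4 and 21.3 FPKM in siSIRT6, and 28.0, 30.1 and 30.4 FPKM in siKDM5C, and the 3 groups did not overlap. The log2 difference was -0.85 in siSIRT6 (SE 0.06, limma adjusted p = 7.84e-06) and -0.41 in siKDM5C (SE 0.06, limma adjusted p = 0.000442). The fall was larger in siSIRT6, by 0.44 on the log2 scale (limma adjusted p = 0.00047).

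Between the knockdown groups, 5 of 9 targets passed, beside 39.9% of all tested genes, and 6 of 9 had no overlap between libraries, beside 51.7%. ZMAT3, TP53INP1 and TP53I3 were higher in siSIRT6, and GDF15 and TNFRSF10B were lower. MDM2, MDM4, SESN1 and XPC did not pass, and their intervals are given above, except that of SESN1, which ran from -0.38 to 0.01 (limma adjusted p = 0.12).

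Small interfering RNAs can also lower transcripts whose 3′ UTR matches their seed, so heptamers in annotated 3′ UTRs (GENCODE 29, 11200 genes) were examined. For each group, 1 heptamer present in at least 300 genes was taken from these same data. It had the lowest mean log2 difference after adjustment for UTR length, weighted by the numbers of genes with and without it. Its link to low values is therefore how it was chosen. The shares given next are not adjusted for UTR length. For siSIRT6 the heptamer was ACTTGTT, in 1846 genes, of which 39.9% fell, against 26.6% of genes without it. In siKDM5C 34.2% of the genes with ACTTGTT fell, against 27.8% without it. For siKDM5C it was AGGTTTA, in 1253 genes, of which 41.4% fell, against 27.3%, and in siSIRT6 the shares for it were 31.0% and 28.5%. Among the 9 targets, MDM2, MDM4 and TNFRSF10B held ACTTGTT in their longest UTR, and ZMAT3 held AGGTTTA. Each of them fell in the group for which its heptamer was chosen. Since the heptamers were chosen by low values in these same data, these matches are only a description. The site of TNFRSF10B is not shown. MDM2 and MDM4 also fell in siKDM5C and held no AGGTTTA. The sites are shown with the heptamer in capitals.
MDM2, ACTTGTT, base 1659 of its longest UTR: taagacaaaACTTGTTaaagcctcc
MDM4, ACTTGTT, base 887 of its longest UTR: catcttgtcACTTGTTttcactgtg
ZMAT3, AGGTTTA, base 5658 of its longest UTR: cattaattaAGGTTTAgtattcgtt
The site was in 1 of 15 annotated MDM2 transcripts, 3 of 10 of MDM4 and 1 of 2 of ZMAT3, and TNFRSF10B held ACTTGTT in 1 of 2. GDF15 and SESN1 fell in siSIRT6 and held no ACTTGTT. The part of these sites in the results was not tested.

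Among other p53 targets more genes fell than rose in both groups. This list and those below were chosen with earlier results of these data known, so their shares and medians are only a description. Of 36 listed, 32 were tested. In siSIRT6, 17 fell, 5 rose and 10 did not pass, so 68.75% were called, beside 50.8% of all tested genes (26.9% fell), with a median log2 difference of -0.29 against -0.05 over all tested genes. In siKDM5C, 17 fell, 6 rose and 9 did not pass (71.88% called, beside 51.5% with 25.9% falling, median -0.30 against -0.02). Over the alternatives that tested the same 32 genes, 18 to 26 were called in siSIRT6 and 17 to 25 in siKDM5C, where 3 rather than 6 rose without control replicate 2. These counts, and the counts by role below, include FAS and KITLG, which met the minimum of 1 FPKM only through the group where they were high. The filter favoured a fall of FAS and a rise of KITLG in siSIRT6, so these calls follow in part from the filter. BTG2, also counted, met the minimum in just 3 libraries, all of them control or siKDM5C libraries. The filter thus favoured its fall in siSIRT6 too, so that call also follows in part from the filter.

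**Figure D3:**
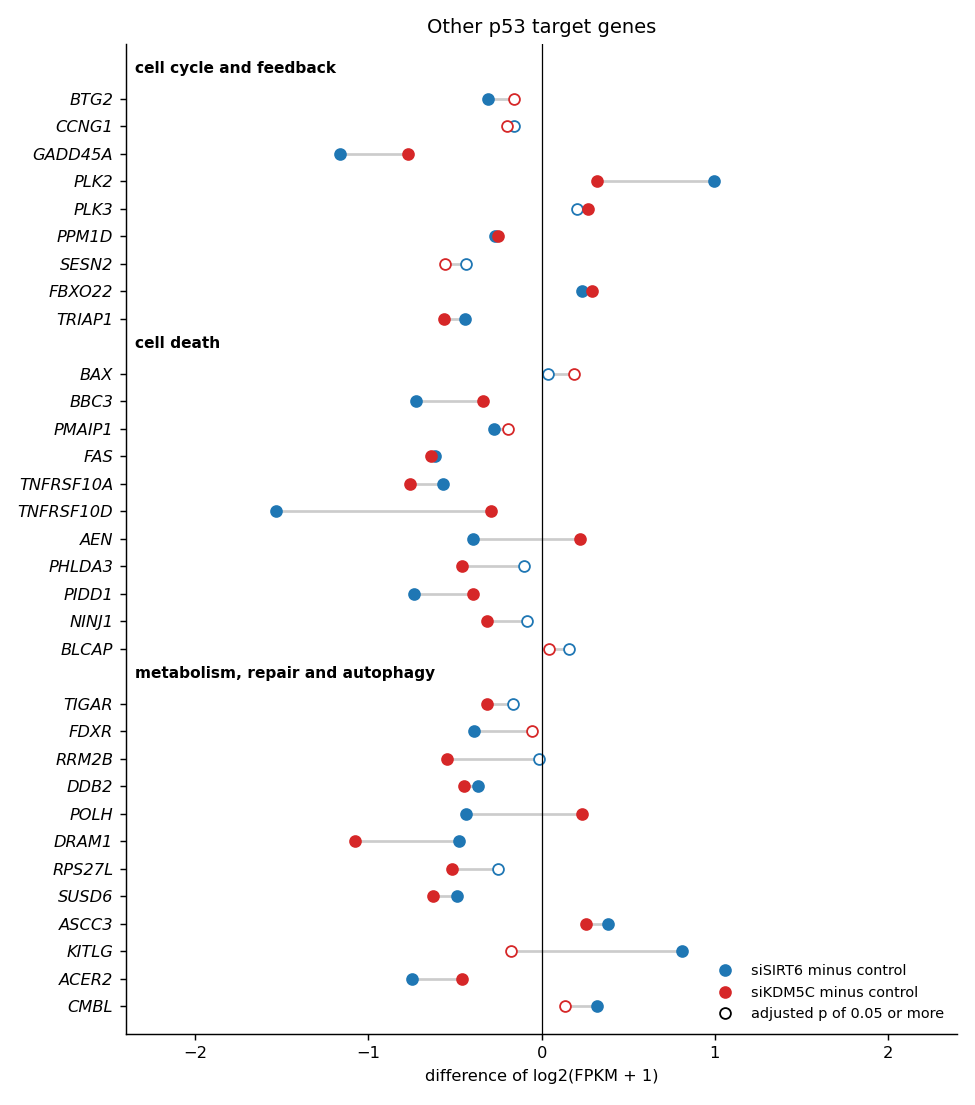
Log2 differences in FPKM + 1 against control for the tested p53 targets outside the 9, by role, in siSIRT6 and siKDM5C, with a grey line joining the 2 points of a gene and open circles for an adjusted p of 0.05 or more. GADD45A, TNFRSF10D and DRAM1 are among the lowest points, and PLK2 lies highest in siSIRT6.

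Among 9 targets of the cell cycle and of feedback on p53, 4 fell and 2 rose in siSIRT6, and 3 fell and 3 rose in siKDM5C; here and in the lists below the all-gene shares called were 50.8% for siSIRT6 and 51.5% for siKDM5C. GADD45A, a stress protein that blocks the cell cycle, fell from 103.5 ± 5.64 FPKM to 45.5 ± 0.950 in siSIRT6 and 60.6 ± 7.88 in siKDM5C (SD, n = 3). PLK2, a kinase of centriole duplication, rose from 18.1 ± 1.603 FPKM to 37.0 ± 0.935 and 22.9 ± 1.18. TRIAP1, a small inhibitor of apoptosis, fell in both, from 11.0 FPKM to 7.82 and 7.15. Of 11 tested cell death targets, 7 fell and 4 did not pass in siSIRT6, and in siKDM5C 7 fell, 1 rose and 3 did not pass. TNFRSF10D, a decoy receptor for TRAIL, fell from 8.39 ± 0.515 FPKM to 2.24 ± 0.200 in siSIRT6 and 6.66 ± 0.227 in siKDM5C, a difference between groups of -1.24 on the log2 scale (limma adjusted p = 5.05e-06). FAS, another death receptor, was at 1.32 FPKM in control, 0.508 in siSIRT6 and 0.486 in siKDM5C, and it entered the test only through control, where it was high. BBC3, a BH3-only activator of apoptosis, fell from 4.38 FPKM to 2.25 and 3.28, the second of these in 13 of 16 alternatives.

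Of 12 tested targets of metabolism, repair and autophagy, 6 fell and 3 rose in siSIRT6, and 7 fell and 2 rose in siKDM5C. DRAM1, a lysosomal protein of autophagy, fell from 9.24 ± 1.14 FPKM to 6.32 ± 0.254 and 3.83 ± 0.250. POLH, the polymerase that copies past UV damage, fell in siSIRT6 from 3.00 to 1.95 FPKM and rose in siKDM5C to 3.69 FPKM, and the direct difference was -0.67 (limma adjusted p = 7.97e-05). KITLG, the ligand of the receptor KIT, was at 0.795 FPKM in control, 2.15 in siSIRT6 and 0.603 in siKDM5C, and it entered the test only through siSIRT6, where it was high.

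Genes that act on p53 moved in both directions, with a large rise of SETD7. Of 27 tested regulators, 11 fell and 5 rose in siSIRT6 (59.26% called, beside 50.8% of all tested genes), and 9 fell and 6 rose in siKDM5C (55.56% called, beside 51.5%). SETD7, a methyltransferase that acts on p53 and other proteins, rose from 2.17 ± 0.105 FPKM to 12.2 ± 0.374 in siSIRT6 and 7.29 ± 0.508 in siKDM5C (limma adjusted p = 2.75e-07 and 8.44e-07). KMT5A, another methyltransferase of p53, fell from 12.8 FPKM to 8.26 and 8.28. EP300, an acetyltransferase and coactivator, fell from 10.5 FPKM to 7.49 and 7.69. CHEK2, a checkpoint kinase of the DNA damage response, fell from 4.24 to 2.50 FPKM in siSIRT6, and at 3.87 FPKM in siKDM5C it did not pass. In the ubiquitin system, USP7, which removes ubiquitin from MDM2 and p53, fell from 24.8 FPKM to 18.0 and 18.3, and UBE4B, a ubiquitin ligase, rose from 9.18 FPKM to 12.6 and 11.8. The ribosomal proteins RPL5 and RPL11, which bind MDM2, moved apart, RPL5 from 99.5 FPKM down to 77.5 and 84.7, and RPL11 from 88.4 FPKM up to 119 and 129.5. Both have processed pseudogenes, so their levels are uncertain.

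**Figure D4:**
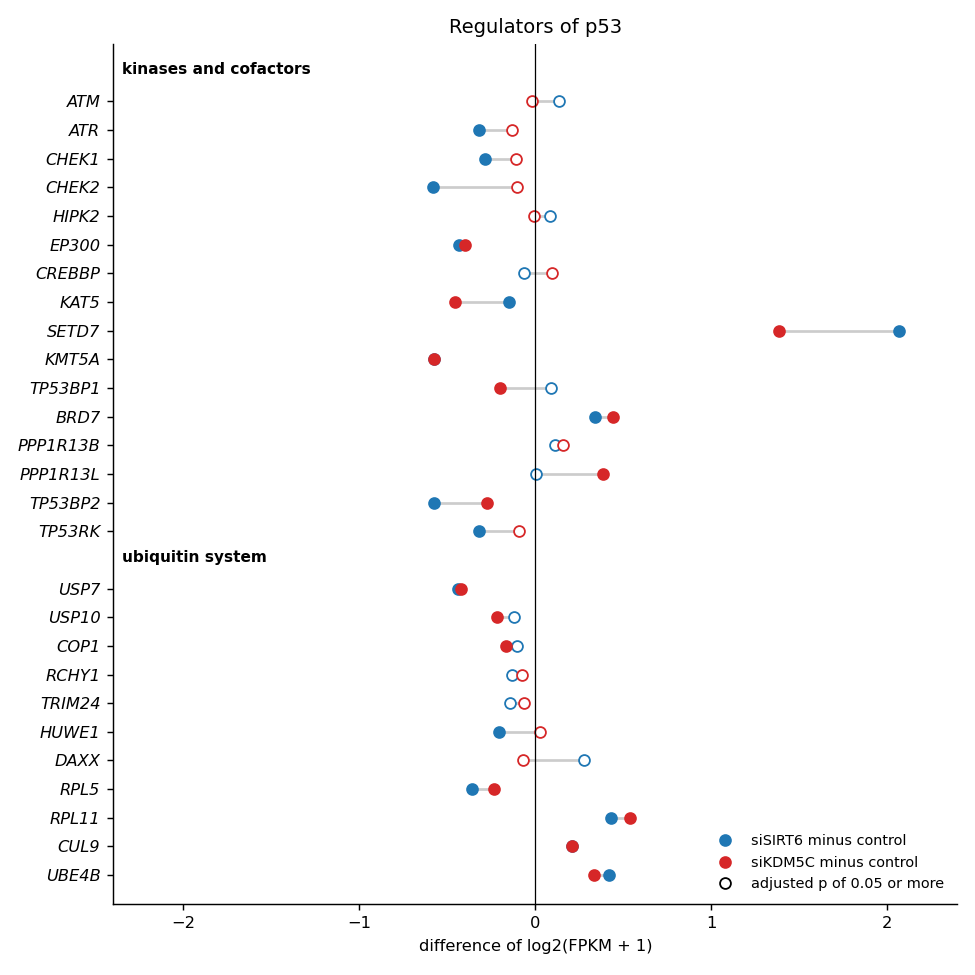
Log2 differences in FPKM + 1 against control for the tested genes that act on p53, in siSIRT6 and siKDM5C, with open circles for an adjusted p of 0.05 or more. SETD7 has the largest rise in each group, 2.07 and 1.39, while KMT5A, EP300 and USP7 lie below 0 in both.

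The pathways of 3 of the targets were read from lists as well. In the TRAIL pathway, 7 of 10 listed genes were tested, and 5 fell and 1 rose in siSIRT6, while 4 fell and 1 rose in siKDM5C (85.71% and 71.43% called, beside 50.8% and 51.5% of all tested genes). The 1 rise in siSIRT6, of the adaptor FADD, was not called without control replicate 1, 2 or 3, or without siSIRT6 replicate 1 or 3. TNFRSF10A, the receptor DR4, fell from 9.60 ± 0.253 FPKM to 6.13 ± 0.112 and 5.26 ± 0.269. CFLAR, the inhibitor of caspase 8 at these receptors, fell as well, from 3.16 FPKM to 2.23 and 1.71. The ligand TNFSF10 had a group mean of at most 0.373 FPKM and was not tested. In nucleotide excision repair, 13 of 14 were tested, and 5 rose and 3 fell in siSIRT6, while 4 rose and 3 fell in siKDM5C. These shares, 61.54% and 53.85%, were near the 50.8% and 51.5% of all tested genes. DDB2, the p53 target that brings XPC to UV damage, fell from 5.54 FPKM to 4.05 and 3.79. The number of genes called in this list for siKDM5C was 7, and it was 3 without siSIRT6 replicate 2, siSIRT6 replicate 3 or siKDM5C replicate 1, 4 without control replicate 1, control replicate 2, siSIRT6 replicate 1 or siKDM5C replicate 3, and 3 in a fit of only the groups compared.

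Among sestrins and the GATOR and TORC1 sensors, 12 of 14 were tested, and 5 fell and 1 rose in siSIRT6, while 3 fell and 2 rose in siKDM5C. Thus 6 of 12 and 5 of 12 were called, shares below the 50.8% and 51.5% of all tested genes. In siSIRT6, 3 fell without control replicate 1, and 2 rose without siKDM5C replicate 3. SESN2, the sister of SESN1, was at 4.33 ± 1.33 FPKM in control, 3.06 ± 1.53 in siSIRT6 and 2.58 ± 0.654 in siKDM5C, and it did not pass (limma adjusted p = 0.25 and 0.149). SEC13 rose in both, from 9.80 FPKM to 14.1 and 14.2. MIOS, a GATOR2 subunit, fell in both, from 7.83 FPKM to 5.83 and 5.58. For GDF15, GFRAL, the receptor, was at a mean of 0.00903 FPKM or less in every group and was not tested. RET, its coreceptor, was at 0.351 FPKM in control, 1.09 in siSIRT6 and 0.0904 in siKDM5C, and it entered the test only through the siSIRT6 libraries, where it was high, so its calls are not used.

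The genes with the most similar pattern over the 9 libraries were found by Pearson's r, as a description of values that share library and depth. UBE2W (r = 0.996) and WDR36 (0.990) were most like MDM2, and SRSF5 (0.992) and IL17RB (0.988) most like MDM4. TUBGCP3 (0.996) and DYNC1H1 (0.992) were most like GDF15, and CREB1 (0.991) and NEK7 (0.990) most like SESN1. PIK3C2B (0.985) and SLC23A2 (0.985) were most like TP53INP1, and ACLY (0.987) and TAGLN2 (0.985) most like TP53I3. For ZMAT3 they were CERS6-AS1 (0.997) and CERS6 (0.996), at 5.70 and 7.36 FPKM in control and 2.13 and 2.63 FPKM in siKDM5C. For XPC they were SERPINB6 (0.997) and OGFR (0.996), and for TNFRSF10B DAZAP2 (0.996) and SH2B3 (0.994). DAZAP2 went from 46.3 FPKM in control to 11.6 in siSIRT6 and 24.5 in siKDM5C, so its fall was steeper than that of TNFRSF10B in the same order of groups.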

How the data were processed

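Messenger RNA was sequenced from 9 PANC-1 libraries, 3 per group, with a stranded kit per the labels. Per the submitters' processing notes, the authors used Trimmomatic, HISAT2, Cufflinks and HTSeq with the hg38 build. Neither the role of each tool nor the annotation or counted strand is stated there. The authors deposited 1 FPKM value per gene and library. Low values are whole multiples of a step, and whole reads were recovered for 99.96% of genes (tolerance 0.01 of a read).

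A gene entered the test if it reached 1 FPKM in 3 or more libraries. Values were taken as log2(FPKM + 1) and tested in 1 limma 3.58.1 fit of all libraries (R 4.3.3, trend, 3 comparisons, two-sided, threshold 0.05). The script was tested on simulated data. Since the values are FPKM, no count model was the main test; limma-voom on the recovered reads was an alternative. Other alternatives were the pseudocount (0.1), filters on low values (none, 5 FPKM), 2 scalings, fits of the compared groups alone, a replicate block and leaving out each library. Tables were handled with Python 3.11.15 and pandas 2.3.3. Coordinates of genes are from GENCODE release 29, promoters from RefSeq.

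The members and lists were chosen with earlier results of these data known. Named genes were all 9 targets, SIRT6, KDM5C, CDKN1A, cell type markers, overlapping genes, up to 4 genes with the smallest adjusted p per list and comparison, and the 2 genes most like each target. SESN2, GFRAL and TNFSF10 were added after their values were seen. A few genes that met this rule are left out of the text.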

Additional observations from a re-analysis of the deposited data

Results flagged for a closer look

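The effects of the knockdowns, taken against the same controls, differed for 5 of the 9 targets by the direct limma comparison of siSIRT6 with siKDM5C, in which 39.9% of all tested genes passed. The difference on the log2 scale, siSIRT6 minus siKDM5C, was 1.10 for ZMAT3, 0.70 for TP53I3 and 0.52 for TP53INP1, all higher in siSIRT6 in 3 of 3 libraries. It was -0.45 for GDF15 and -0.44 for TNFRSF10B, both lower in siSIRT6 in 3 of 3 libraries.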

How the results depend on the processing

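In siSIRT6 against control, 7 of 9 targets were called, and 7 in every fit that left out 1 library. In siKDM5C against control 8 were called, and 7 to 8 without single libraries, and between the knockdowns 5, and 5 to 5. With at least 5 FPKM only 6 targets were tested, of which 5 were called in siKDM5C, fewer because fewer were tested, and 5367 and 5418 of all genes were called in siSIRT6 and siKDM5C, against 8194 and 8308. The log2 difference of ZMAT3 in siSIRT6 ran from -0.0341 to 0.0704 without single libraries, and was below 0 without control replicate 3 or siSIRT6 replicate 1. Between the knockdowns, MDM2 ran from -0.0955 to 0.119 and XPC from -0.0168 to 0.0555, both with the sign reversed without siKDM5C replicate 2. None of these passed; the cause was not tested. SESN1 in siKDM5C lost its call in 6 of 16 alternatives, at limma adjusted p of 0.0700 with no filter, 0.0734 in a fit of only the groups compared, and 0.0871 to 0.0960 without control replicate 1 or 2 or siKDM5C replicate 1 or 3; the cause was not tested. All other values kept direction and side of the threshold, except TP53I3 in siKDM5C, which passed without siKDM5C replicate 1 and with a replicate block. Under median-of-ratios scaling 4214 genes rose and 3956 fell in siSIRT6, against 3861 and 4333. For deviations from group means, same-numbered libraries of control and siKDM5C correlated at -0.229, 0.252 and -0.0386. Control replicate 3 was closest to siKDM5C replicate 1 (0.426). The same-numbered values were 0.0125, 0.0417 and 0.0466 for control and siSIRT6, and -0.0236, 0.0657 and 0.0766 for siSIRT6 and siKDM5C. With 3 libraries per group, these values cannot decide whether the replicate numbers mark pairs. With the replicate block 7, 9 and 5 targets were called in the 3 comparisons, and TP53I3 in siKDM5C passed (-0.21, limma adjusted p = 0.0375). Low read numbers, at least 152 per target, limit the precision of the lowest genes.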
